A study of Mus musculus with 4 samples.

Results

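Macrophages are tissue phagocytes that depend on the growth factor CSF1, clear dying cells, and share with dendritic cells and B cells the machinery that shows peptides on MHC class II. This account describes 32 genes of macrophages and antigen presentation, chosen by gene symbol, among the 55335 genes of the deposited table of mouse testis. All 32 were matched by symbol and all 32 passed the filter on low counts, which left 24116 genes for testing. Poly(A) RNA of fresh testes at postnatal day 14 was sequenced in 2 libraries of the genotype Znhit1_KO and 2 of the genotype CTRL. Znhit1 encodes a subunit of SRCAP, a chromatin remodeller that loads H2A.Z into nucleosomes. The series concerns meiotic gene expression in males. The sources used here do not give the strain, the allele, the cells in which the gene was deleted, the exact genotype of the controls or the number of animals per library. Germ cells are named in the series' design text, but the labels give testis cells and describe no purification, and markers of somatic cells were detected.

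In the mouse testis, macrophages lie in the interstitium beside Leydig cells and along the peritubular wall of the seminiferous tubules. Interstitial macrophages are known for high CSF1 receptor and mannose receptor (Mrc1) and little MHC class II, whereas peritubular macrophages are known for MHC class II. The genes fall into 6 groups by role: CSF1 and chemokine signals with their receptors, proteins of myeloid identity, Fc and ITAM receptors, scavenger and clearance receptors, complement C1q with lysozyme, and MHC class II presentation. No gene of this set is specific to macrophages in every tissue. Mertk, for instance, is also expressed by Sertoli cells, the somatic cells of the tubule, which clear dying germ cells.

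Estimated counts summed to between 129531714 and 157790457 per library. Znhit1 stood at 17.3 and 31.9 CPM (estimated counts scaled to library size with TMM normalisation) in CTRL replicates 1 and 2, and at 3.15 and 2.14 CPM in Znhit1_KO replicates 1 and 2. The tissue label was checked against marker lists: all 24 Sertoli cell markers, all 14 Leydig cell markers and all 13 spermatocyte markers were detected in testable amounts. Spermatocyte markers, which summed to 1487 and 3009 CPM in CTRL and 755 and 1119 CPM in Znhit1_KO, were lower in both libraries of Znhit1_KO. CTRL replicate 2 stood apart with the highest sum.

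Macrophage and antigen presentation genes were, as a set, somewhat higher in the Znhit1_KO libraries, and no single gene passed the test over all genes. The log2 change was positive for 29 of the 32 genes, against 53.1% of all genes tested; with scaling to the Sertoli cell marker list it was positive for 25. The median log2 change was 0.56, against 0.031 over all genes tested. Both Znhit1_KO libraries lay above both CTRL libraries for 12 of the 32 genes, or 37.5%, against a background of 21.8%, and for 4 with Sertoli list scaling. Both lay below for 3 genes, Fcgr3, Aif1 and H2-Ab1, or 9.38%, against 21.3%, and for 4 with Sertoli list scaling, as many as lay above. The edgeR quasi-likelihood test with Benjamini-Hochberg adjustment called 0 of the 32, where it also called 0% of all genes. At an unadjusted p under 0.05 there were 4 higher genes (Adgre1, Mertk, H2-Aa and Cd74), against a background of 2.99%, and 1 lower gene (Fcgr3), against 7.75%. With Sertoli list scaling these counts were 0 higher and 1 lower. Under that scaling 3888 of all 24116 genes had an unadjusted p under 0.05 in edgeR, in either direction, and the median of all genes was -0.33. The shares of all genes that were positive or without overlap were not computed for that scaling. The Sertoli list counts therefore cannot be set against the percentages given here. DESeq2 called 1 gene (background 4.32%), Fcgr3, as lower (background 3.86%), limma-voom called 0 (background 0%), and the authors' deposited table marks Fcgr3 lower (background 3.22%) and 0 of the set higher (background 0.277%). In whole tissue, a change in the number of cells of a type and a change in RNA per cell cannot be told apart.

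**Figure D1:**
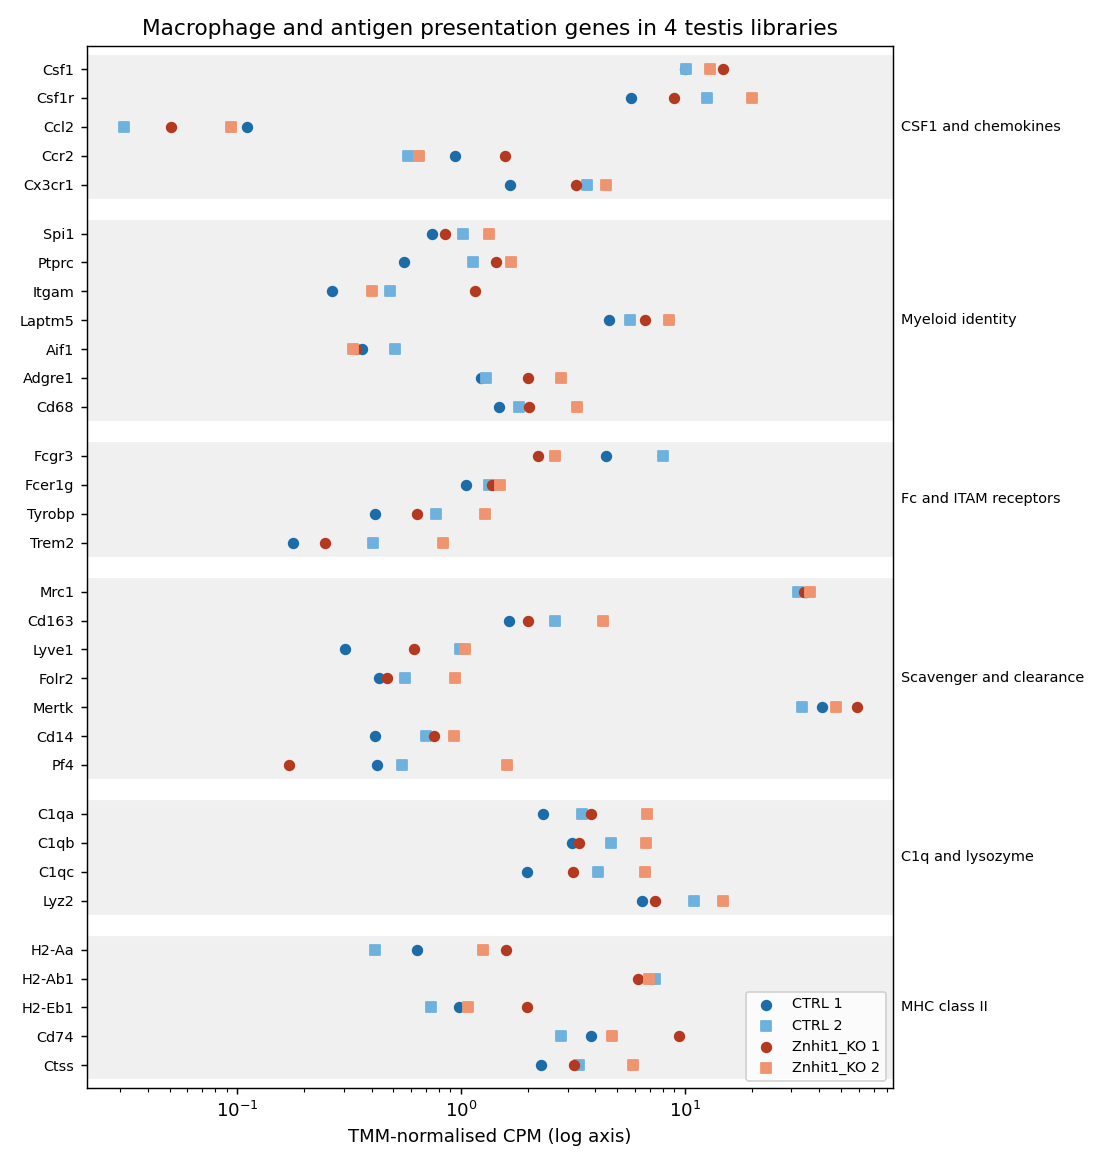
Level of each of the 32 genes in the 4 libraries, as TMM-normalised CPM on a log axis, grouped by role; circles are replicate 1 and squares replicate 2 of each genotype. Most rows show CTRL replicate 1 at the left and Znhit1_KO replicate 2 at the right, whereas Fcgr3 has both Znhit1_KO libraries at the left.

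Znhit1_KO replicate 2 weighed heavily in this picture. It was the highest library for 21 of the 32 genes, against 20.6% of all genes tested, Znhit1_KO replicate 1 was the highest for 7, against 31%, and CTRL replicate 1 was the lowest for 21, against 22.8%. Without Znhit1_KO replicate 2 the median log2 change was 0.11 and 18 of the 32 changes were positive. Without CTRL replicate 2 the median was 0.87, without CTRL replicate 1 it was 0.37, and without Znhit1_KO replicate 1 it was 0.72. The sign of 20 genes stayed the same whichever library was left out, 17 of them higher and 3 lower in Znhit1_KO.

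H2-Aa and Cd74, of the MHC class II group, had the largest positive log2 changes of the set as point estimates. Itgam, of the identity group, came next at 1.06, close to Cd74 at 1.10. H2-Eb1 and Ctss were within the range of other genes and H2-Ab1 was slightly negative. H2-Aa encodes the alpha chain of the I-A molecule, H2-Ab1 its beta chain and H2-Eb1 the beta chain of the I-E molecule. H2-Aa (chr17:34282744-34287823, mm10, minus strand) and H2-Eb1 (chr17:34305867-34316674, plus strand) are both protein-coding genes of the MHC on chromosome 17. The 250 bases before their RefSeq start sites (GRCm38.p6) are shown because these 2 genes had higher levels in both Znhit1_KO libraries and share a motif. Capitals mark the Y box letters CTGATTGG, part of the promoter module of MHC class II genes, 44 to 51 bases before the start of H2-Aa and 55 to 62 before that of H2-Eb1.
H2-Aa: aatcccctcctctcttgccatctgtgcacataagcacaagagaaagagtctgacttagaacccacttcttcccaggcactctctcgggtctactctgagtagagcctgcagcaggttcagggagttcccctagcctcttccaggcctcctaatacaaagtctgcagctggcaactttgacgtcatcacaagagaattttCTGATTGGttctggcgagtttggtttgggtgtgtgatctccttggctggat
H2-Eb1: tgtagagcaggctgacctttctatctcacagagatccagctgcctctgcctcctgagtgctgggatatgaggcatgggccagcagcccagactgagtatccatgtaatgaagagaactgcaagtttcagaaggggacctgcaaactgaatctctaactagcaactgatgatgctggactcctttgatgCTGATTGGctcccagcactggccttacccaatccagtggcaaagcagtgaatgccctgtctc
The windows are chr17:34287824-34288073 on the minus strand for H2-Aa and chr17:34305617-34305866 on the plus strand for H2-Eb1. These letters, on either strand, occurred in 3.83% of all 32851 promoter windows of this length, and in 2 of the 25 windows found for 22 of the 32 genes. No window was found for H2-Ab1 or Cd74, so these genes were not searched for the letters. The letters therefore cannot be said to set H2-Aa and H2-Eb1 apart from H2-Ab1, and their relation to the changes was not tested.

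H2-Aa stood at 0.637 and 0.413 CPM in CTRL replicates 1 and 2 and at 1.60 and 1.25 CPM in Znhit1_KO replicates 1 and 2. The groups did not overlap, and both Znhit1_KO values were well above both CTRL values. H2-Aa differed by a log2 change of 1.44 (SE 0.432), at an edgeR p of 0.0187 unadjusted and 0.359 adjusted over all genes, and it lay between 1.16 and 1.78 with any 1 library left out. H2-Eb1 stood at 0.985 and 0.740 CPM in CTRL and at 1.98 and 1.08 CPM in Znhit1_KO, in the same order. Its groups did not overlap, but Znhit1_KO replicate 2 was close to CTRL replicate 1, and the log2 change was 0.82 (SE 0.455). Cd74, the invariant chain that guides class II molecules to the compartment where peptides are loaded, stood at 3.84 and 2.80 CPM in CTRL and at 9.46 and 4.75 CPM in Znhit1_KO. The high value was that of Znhit1_KO replicate 1, and without it the log2 change of 1.10 (SE 0.413) was 0.48. Cathepsin S (Ctss), the protease that trims the invariant chain, had overlapping groups, with 2.28 and 3.36 CPM in CTRL and 3.22 and 5.87 CPM in Znhit1_KO.

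H2-Ab1 did not share the pattern of its partner chain. It stood at 7.16 and 7.40 CPM in CTRL and at 6.17 and 6.92 CPM in Znhit1_KO, and both Znhit1_KO values lay slightly below both CTRL values. The log2 change was -0.15 (SE 0.230). On the authors' TPM scale, which corrects for transcript length, H2-Ab1 was more abundant than H2-Aa in every library, and the ratio of H2-Ab1 to H2-Aa came to 11.3 and 17.5 for CTRL and 4.07 and 5.51 for Znhit1_KO. The ratio of H2-Eb1 to H2-Aa was nearer to even, at 1.43 and 1.58 in CTRL and 1.00 and 0.691 in Znhit1_KO. Both ratios were below the CTRL range in each Znhit1_KO library. The differences in these ratios were not tested.

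Fcgr3, which encodes the low-affinity IgG receptor CD16, was lower in both Znhit1_KO libraries, whereas Fcer1g, Tyrobp and Trem2 had positive changes (Fcer1g not with Sertoli list scaling). Fcgr3 stood at 4.44 and 7.99 CPM in CTRL and at 2.21 and 2.63 CPM in Znhit1_KO. Neither Znhit1_KO library came near the lower CTRL value. This gave a log2 change of -1.36 (SE 0.374), at an edgeR p of 0.0133 unadjusted and 0.330 adjusted over all genes, and it lay between -1.73 and -0.88 with any 1 library left out. In the authors' deposited table Fcgr3 has a log2 value of -1.36 and an adjusted p of 0.0160. The spermatocyte marker list had the same order of libraries. It summed to 1487 and 3009 CPM in CTRL and to 755 and 1119 CPM in Znhit1_KO. The part of spermatocytes in the value of Fcgr3 was not tested. Fcgr3 is a protein-coding gene at chr1:171051174-171064935 (mm10, minus strand), and its exons share no base with those of another annotated gene. The 250 bases before one of its 2 RefSeq start sites (chr1:171059404-171059653, minus strand, GRCm38.p6) are shown because it is the gene called by DESeq2. This window lies inside the gene bounds given above, downstream of their 5' end, and the window of the other start site is not shown. Capitals mark TTCCTC, the reverse complement of GAGGAA, which is the short core bound by PU.1, the lineage factor encoded by Spi1. GAGGAA occurred on either strand in 23.3% of all promoter windows and in 13 of the 25 windows of the set.
Fcgr3: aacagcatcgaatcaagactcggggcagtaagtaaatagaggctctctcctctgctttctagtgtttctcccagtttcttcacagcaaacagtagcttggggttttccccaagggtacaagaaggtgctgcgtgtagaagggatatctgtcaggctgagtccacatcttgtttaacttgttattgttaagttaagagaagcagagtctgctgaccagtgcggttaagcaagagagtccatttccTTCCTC

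The signalling partners of Fcgr3 did not follow it. Fcer1g, the common gamma chain that CD16 needs for signalling, stood at 1.05 and 1.34 CPM in CTRL and at 1.3801 and 1.505 CPM in Znhit1_KO. The groups of Fcer1g were just apart, in the upward direction, and the log2 change of 0.27 (SE 0.355) was smaller than its standard error; with Sertoli list scaling it was -0.080. The ratio of Fcgr3 to Fcer1g on the TPM scale came to 2.44 and 3.40 for CTRL and 0.998 and 1.04 in Znhit1_KO. The 2 Znhit1_KO ratios were nearly alike and both below the CTRL ratios. Tyrobp (DAP12), the adaptor of TREM receptors, had a log2 change of 0.69 (SE 0.567), and Trem2, a lipid-sensing receptor that signals through it, one of 0.89 (SE 0.794). In both, CTRL replicate 2 exceeded Znhit1_KO replicate 1, so the groups overlapped. The other Fc receptor genes, named after their values were seen, were Fcgr1, with a log2 change of 1.62 (SE 0.779), and Fcgr2b, with 0.10 (SE 0.411). Fcgr4 did not pass the filter.

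Of the 7 genes of myeloid identity none was called, 4 lay above and 1 below without overlap (21.8% and 21.3% of all genes), and 1 had an unadjusted p under 0.05 in edgeR. With Sertoli list scaling 1 lay above and 1 below, and the shares of all genes were not computed for that scaling. Adgre1 (F4/80), a surface marker of mature mouse macrophages, stood at 1.23 and 1.29 CPM in CTRL and at 2.01 and 2.80 CPM in Znhit1_KO. The CTRL libraries were nearly alike and both Znhit1_KO libraries lay above them. For Adgre1 the log2 change amounted to 0.93 (SE 0.347), at an edgeR p of 0.0408 unadjusted and 0.450 adjusted over all genes. Ptprc (CD45), the phosphatase on all leukocytes, stood at 0.555 and 1.13 CPM in CTRL and at 1.44 and 1.69 CPM in Znhit1_KO. Laptm5, a lysosomal protein of blood cells, stood at 4.61 and 5.72 CPM in CTRL and at 6.69 and 8.499 CPM in Znhit1_KO. Cd68, a lysosomal glycoprotein of macrophages, had a log2 change of 0.69 (SE 0.381), and its groups too did not overlap.

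Spi1, Itgam and Aif1 differed from these. Spi1, which encodes PU.1, stood at 0.741 and 1.03 CPM in CTRL and at 0.855 and 1.33 CPM in Znhit1_KO, with overlapping groups and a log2 change of 0.31 (SE 0.436) that was -0.022 with Sertoli list scaling. Itgam (CD11b), an integrin chain of myeloid cells, was high in 1 library only, at 1.16 CPM in Znhit1_KO replicate 1 against 0.267 to 0.483 CPM in the others. Its value is uncertain, since 68.7% of its exonic bases also belong to the gene model Gm49368 on the same strand. Aif1 (IBA1), an actin-binding protein of macrophages, stood at 0.363 and 0.506 CPM in CTRL and at 0.342 and 0.331 CPM in Znhit1_KO. Its log2 change of -0.37 (SE 0.506) was smaller than the standard error.

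**Figure D2:**
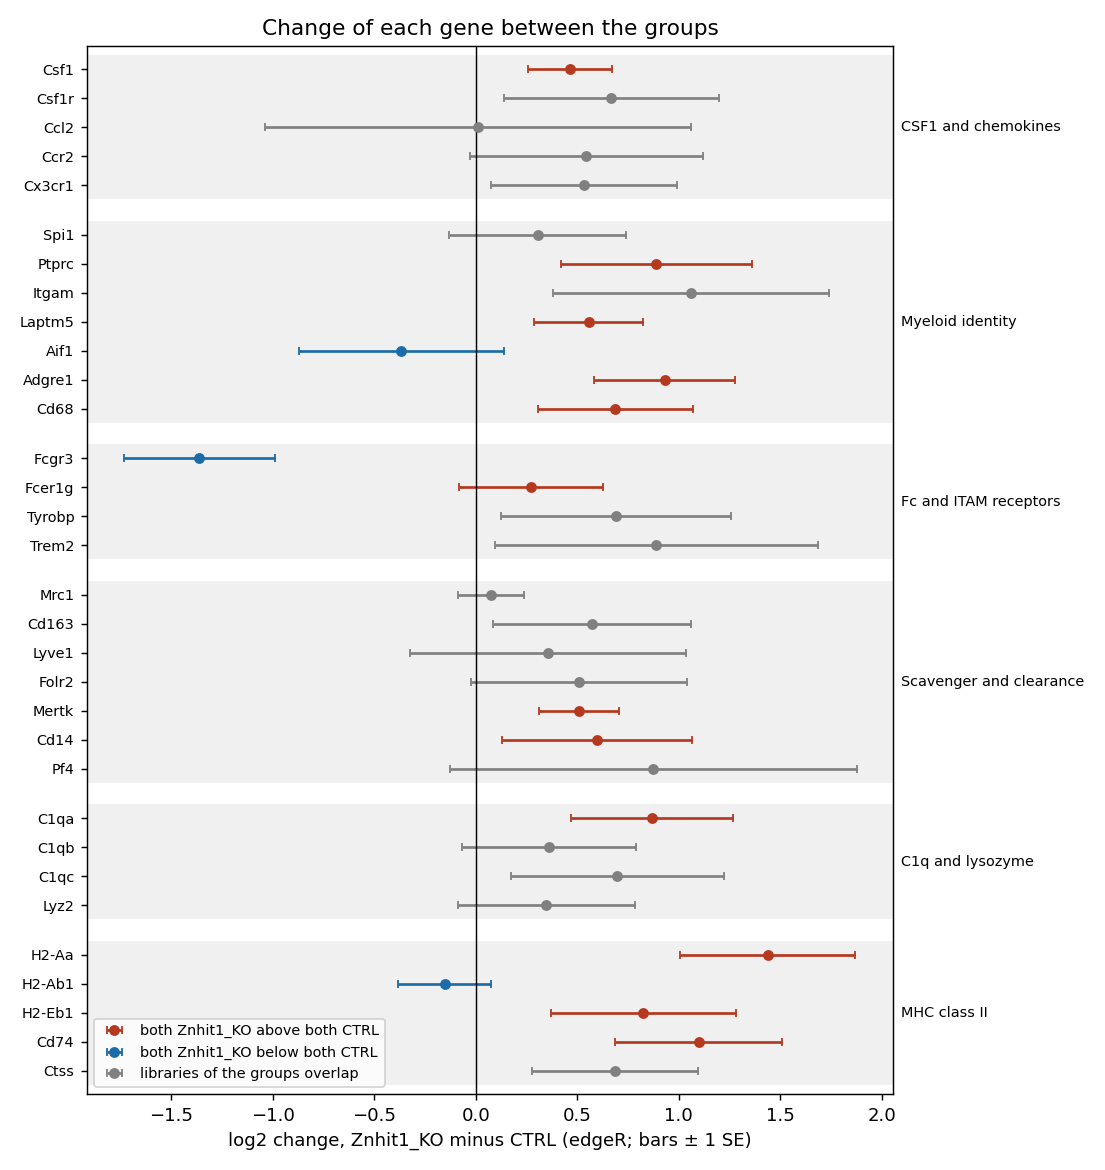
Log2 change between Znhit1_KO and CTRL of each of the 32 genes from the edgeR fit, with bars of 1 SE to either side, grouped by role; red marks genes with both Znhit1_KO libraries above both CTRL libraries and blue those with both below. H2-Aa lies farthest to the right at 1.44 and Fcgr3 farthest to the left at -1.36.

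For C1qb, C1qc and Lyz2 the log2 differences between replicates, 0.59 to 1.08, exceeded the changes between genotypes, 0.35 to 0.70. C1qa, C1qb and C1qc encode the 3 chains of C1q, the recognition protein of the classical complement pathway, and lie side by side on chromosome 4. C1qa stood at 2.33 and 3.47 CPM in CTRL and at 3.83 and 6.76 CPM in Znhit1_KO. Its groups were just apart, with a log2 change of 0.87 (SE 0.400). C1qc stood at 1.98 and 4.10 CPM in CTRL and at 3.17 and 6.68 CPM in Znhit1_KO, and C1qb at 3.13 and 4.71 CPM in CTRL and at 3.37 and 6.70 CPM in Znhit1_KO. For both of these genes replicate 2 exceeded replicate 1 within each genotype, and CTRL replicate 2 exceeded Znhit1_KO replicate 1. Lyz2, the lysozyme of myeloid cells, had the same order of libraries, with 6.44 and 10.97 CPM in CTRL and 7.36 and 14.8 CPM in Znhit1_KO. The log2 changes were 0.70 (SE 0.524) for C1qc, 0.36 (SE 0.430) for C1qb and 0.35 (SE 0.436) for Lyz2. Without Znhit1_KO replicate 2 the median of these 4 genes was -0.11, against 0.53 with it.

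The promoter window of C1qc is shown because C1qc and Pf4 were the genes of the set whose windows held the longer PU.1 letters GAGGAAGT on either strand, found in 2.44% of all windows. The window is chr4:136892915-136893164 (GRCm38.p6, minus strand), and capitals mark ACTTCCTC, the reverse complement, 188 to 195 bases before the RefSeq start. The gene bounds of C1qc are chr4:136889804-136893065 (mm10, minus strand), so the window lies partly inside them. The RefSeq start used is downstream of their 5' end.
C1qc: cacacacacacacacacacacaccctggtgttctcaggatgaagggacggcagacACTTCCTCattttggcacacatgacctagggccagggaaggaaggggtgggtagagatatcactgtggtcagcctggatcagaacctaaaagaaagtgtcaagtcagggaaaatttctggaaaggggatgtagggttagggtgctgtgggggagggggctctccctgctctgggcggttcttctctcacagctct

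Scavenger and clearance receptors split by abundance. Mertk, a receptor kinase for the uptake of dying cells, had the highest mean level of the set, at 26.4 TPM, although Lyz2 exceeded it in replicate 2 of both genotypes. It stood at 41.2 and 33.4 CPM in CTRL and at 58.6 and 47.5 CPM in Znhit1_KO. Both Znhit1_KO libraries were higher, and within each genotype replicate 1 exceeded replicate 2, as it also did for the Sertoli cell marker list in Znhit1_KO. For Mertk the log2 change amounted to 0.51 (SE 0.199), at an edgeR p of 0.0477 unadjusted and 0.463 adjusted over all genes. In the same libraries the Sertoli cell marker list had a median log2 change of 0.46, with all 24 markers positive; its part in the value of Mertk was not tested. With scaling to that list the log2 change of Mertk was 0.14 (SE 0.226), and none of the 4 higher genes named above (Adgre1, Mertk, H2-Aa and Cd74) kept an unadjusted p under 0.05 in edgeR.

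Mrc1 (CD206), the mannose receptor, differed little. It stood at 34.7 and 32.1 CPM in CTRL and at 34.1 and 36.2 CPM in Znhit1_KO, and the groups overlapped. The log2 change was 0.073 (SE 0.162), and -0.28 with Sertoli list scaling. Mertk and Mrc1 together made up between 39.8% and 53.5% of the summed CPM of the 32 genes. Without them the sum came to 65.9 and 92.9 CPM for CTRL and 91.9 and 126.6 CPM in Znhit1_KO, so CTRL replicate 2 and Znhit1_KO replicate 1 were level.

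The receptors known from resident macrophages were scarcer and highest in Znhit1_KO replicate 2. Cd163, the receptor for haemoglobin bound to haptoglobin, stood at 1.64 and 2.62 CPM in CTRL and at 2.00 and 4.34 CPM in Znhit1_KO. Folr2, a folate receptor, stood at 0.430 and 0.561 CPM in CTRL and at 0.468 and 0.944 CPM in Znhit1_KO, but 63.1% of its exonic bases lie opposite the antisense gene Gm10602. Lyve1, a hyaluronan receptor of perivascular macrophages and lymphatic vessels, stood at 0.304 and 0.997 CPM in CTRL and at 0.620 and 1.04 CPM in Znhit1_KO. In all 3 genes CTRL replicate 2 lay above Znhit1_KO replicate 1, so the groups overlapped. Pf4, a chemokine of platelets and some macrophages, ranged widest within a genotype, with 0.422 and 0.545 CPM in CTRL and 0.171 and 1.61 CPM in Znhit1_KO. Cd14, the co-receptor for lipopolysaccharide, had groups that did not overlap and a log2 change of 0.60 (SE 0.469).

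Among the signals, the growth factor was higher in both Znhit1_KO libraries, while its receptor overlapped. Csf1 stood at 10.08 and 10.1 CPM in CTRL and at 14.9 and 12.99 CPM in Znhit1_KO. The CTRL libraries were nearly alike, and Csf1 had a log2 change of 0.46 (SE 0.206), at an edgeR p of 0.0704 unadjusted. Csf1r stood at 5.75 and 12.5 CPM in CTRL and at 8.96 and 20.1 CPM in Znhit1_KO. Replicate 2 was more than double replicate 1 in both genotypes, with log2 differences of 1.12 in CTRL and 1.17 in Znhit1_KO, and these exceed the log2 change between genotypes of 0.67 (SE 0.529). Part of the Csf1r exons, 15.1% of its bases, lies opposite exons of Hmgxb3.

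The chemokine receptors differed in which library was high. Cx3cr1, the fractalkine receptor, stood at 1.67 and 3.66 CPM in CTRL and at 3.26 and 4.45 CPM in Znhit1_KO. Ccr2, the receptor that brings monocytes into tissue, stood at 0.9405 and 0.584 CPM in CTRL and at 1.58 and 0.648 CPM in Znhit1_KO, so that replicate 1 was higher in both genotypes. Its ligand Ccl2 was near the limit of detection, with 15 and 4 estimated counts in CTRL and 8 and 13 in Znhit1_KO. The log2 change of Ccl2 was 0.013 (SE 1.05), so no difference was detectable at this depth.

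Libraries with the same replicate number shared a direction across the set. Replicate 2 exceeded replicate 1 in both genotypes for 22 of the 32 genes, against 37.8% of all genes with reads in every library, and the reverse held for 5 genes (Ccr2, Mertk, H2-Aa, H2-Eb1 and Cd74), against 34.5%. The median log2 difference between replicate 2 and replicate 1 came to 0.48 for CTRL and 0.47 for Znhit1_KO, against 0.049 and -0.0051 over all genes. For 8 of the 32 genes the change between genotypes was larger than both differences between replicates, against 31.4% of all genes. Red blood cell markers differed in the same direction and by more: the list of 7 summed to 14.7 and 96.8 CPM in CTRL and to 18.6 and 216.3 CPM in Znhit1_KO. Hba-a1, an alpha globin, stood at 3.79 and 22.6 CPM in CTRL and at 4.77 and 58.8 CPM in Znhit1_KO. The part of blood in the levels of the macrophage genes was not tested.

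The role groups therefore differed in which library was highest. For MHC class II, the mean log2 CPM, centred on the 4 libraries, came to -0.29 and -0.46 for CTRL and 0.49 and 0.26 for Znhit1_KO, with no overlap and with replicate 1 the higher in both genotypes. For C1q and lysozyme it came to -0.64 and 0.10 for CTRL and -0.22 and 0.75 in Znhit1_KO, and for the scavenger receptors -0.44 and 0.042 in CTRL and -0.23 and 0.63 in Znhit1_KO. These 2 groups overlapped between genotypes and were higher in replicate 2. The ratio of Cd74 to C1qa on the TPM scale came to 1.37 and 0.691 for CTRL and 2.04 and 0.583 in Znhit1_KO, so it parted the replicate numbers and not the genotypes. The identity genes were at -0.53 and -0.034 in CTRL and 0.22 and 0.34 in Znhit1_KO, and the CSF1 and chemokine genes at -0.25 and -0.22 in CTRL and 0.14 and 0.32 in Znhit1_KO; neither overlapped.

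**Figure D3:**
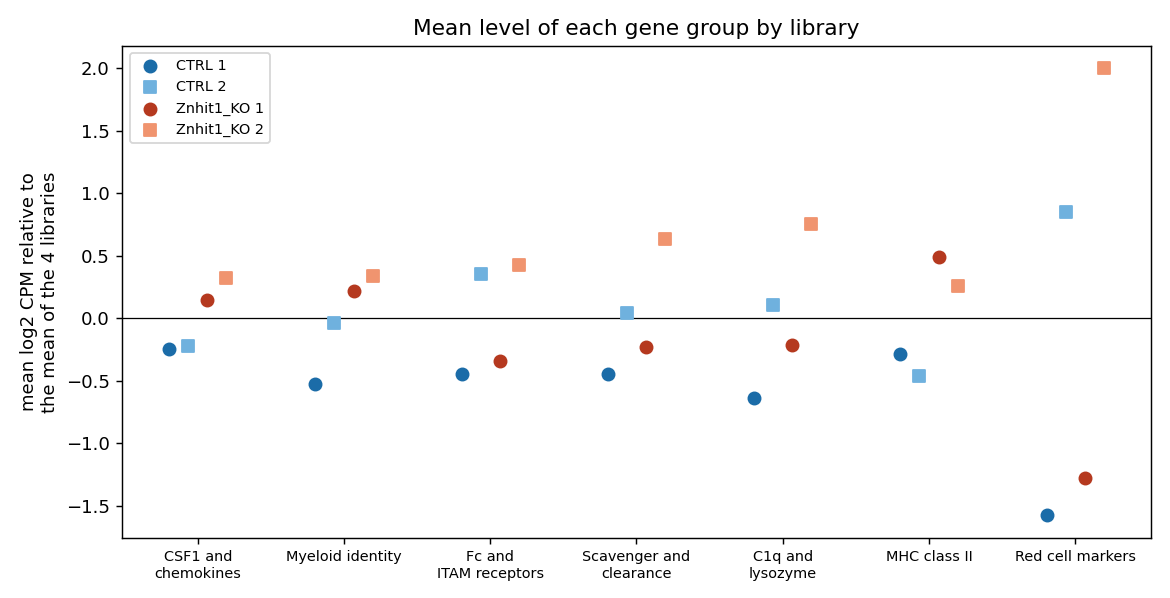
Mean log2 CPM of each role group and of the red cell markers in each library, relative to the mean of the 4 libraries; circles are replicate 1 and squares replicate 2. C1q and lysozyme, scavenger receptors and red cell markers are higher in replicate 2 of each genotype, whereas MHC class II is higher in replicate 1.

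Leaving out 1 library set these groups apart in the same way. Without Znhit1_KO replicate 2 the median log2 change turned to -0.090 for the scavenger group, -0.11 for C1q and lysozyme and -0.097 for the Fc and ITAM group, from 0.51, 0.53 and 0.48 with all libraries. The MHC class II median was 0.82 with all libraries, 1.15 without Znhit1_KO replicate 2 and 0.48 without Znhit1_KO replicate 1. The identity median was 0.69 with all libraries and 0.34 without Znhit1_KO replicate 2.

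**Figure D4:**
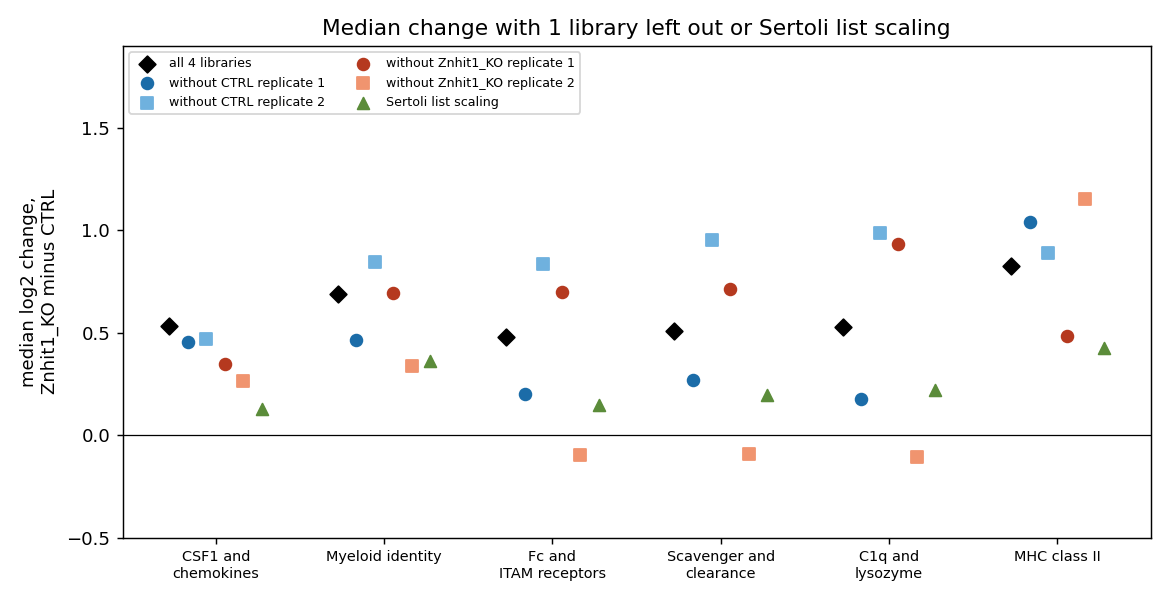
Median log2 change of each role group with all 4 libraries, with each library left out in turn, and with scaling to the Sertoli cell marker list. The medians of 3 groups turn negative without Znhit1_KO replicate 2, whereas those of the CSF1 and chemokine, identity and MHC class II groups stay positive in every setting plotted.

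By TPM, 6 of the 32 genes had a mean above 10 and 6 had a mean under 1. After Mertk the order was Lyz2 (mean 18.7 TPM), Mrc1 (16.3), H2-Ab1 (14.8), Cd74 (10.5), C1qb (10.2), C1qa (9.83), Fcgr3 (9.31) and C1qc (8.22). The ranges over libraries of Mertk and Lyz2 overlapped, as did those of Lyz2, Mrc1 and H2-Ab1 and those of H2-Ab1, Cd74, C1qb, C1qa, Fcgr3 and C1qc, so the order within these is not firm. The 6 scarcest genes were Trem2, Lyve1, Ptprc, Ccr2, Itgam and Ccl2, with means between 0.171 and 0.731 TPM. Of the 32 log2 changes, 12 were smaller than their standard errors.

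Other genes of the same pathways were taken from 7 lists of 122 genes, of which 110 passed the filter. EdgeR called 0 of them over all genes, with 16 higher and 3 lower at an unadjusted p under 0.05, against 2.99% and 7.75% of all genes. Both Znhit1_KO libraries lay above both CTRL libraries for 47 and below for 8, against 21.8% and 21.3% of all genes. MHC class I presentation displays peptides from within the cell and is not limited to immune cells. All 14 genes had a positive log2 change, 11 were higher in both Znhit1_KO libraries (21.8% of all genes), and the median was 0.71. With Sertoli list scaling 9 of the 14 were positive, 5 lay above and 1 below, and the median was 0.37. The median of all genes was -0.33 with that scaling, and their shares were not computed. B2m, the light chain of MHC class I, stood at 44.98 and 33.2 CPM in CTRL and at 97.0 and 62.8 CPM in Znhit1_KO. Both Znhit1_KO values were above both CTRL values, and B2m had a log2 change of 1.03 (SE 0.276), at an edgeR p of 0.0119 unadjusted. The authors' deposited table marks B2m higher, with an adjusted p of 0.0282. Tap1, which carries peptides into the endoplasmic reticulum, had a log2 change of 0.88 (SE 0.278). H2-K1, a class I heavy chain and the most abundant of the list, had one of only 0.079 (SE 0.155), and Tapbp one of 0.27 (SE 0.184).

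Of 15 other genes of the MHC class II pathway 12 passed the filter, with a median log2 change of 0.11 that was -0.23 with Sertoli list scaling. Without overlap, 2 lay above and 3 below, near the shares over all genes of 21.8% and 21.3%. Ciita, the master regulator of class II transcription, was named after its values were seen: it stood at 0.237 and 0.171 CPM in CTRL and at 0.355 and 0.346 CPM in Znhit1_KO, with a log2 change of 0.77 (SE 0.569). H2-DMb2 and H2-DMb1, near-identical copies between which reads may be divided, encode a chain of the peptide-loading catalyst and had log2 changes of -2.33 (SE 0.796) and -0.95 (SE 0.594). Lgmn, a lysosomal protease, had a change of 0.20 (SE 0.218), and Rfxap, a subunit of the factor that binds the X box, one of 0.12 (SE 0.262).

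In the remaining lists the medians were 0.53 for 13 chemokine genes, 0.47 for 12 complement genes, 0.43 for 25 clearance and lysosome genes, 0.41 for 20 genes of Fc and ITAM signalling and 0.20 for 14 genes of CSF receptors and lineage factors; with Sertoli list scaling they were 0.11, 0.10, 0.067, 0.075 and -0.18. Cxcl12, a chemokine of stromal cells, had a log2 change of 0.67 (SE 0.205), and Cx3cl1, the ligand of CX3CR1, one of 0.30 (SE 0.249). Axl, a clearance receptor related to MERTK, stood at 256.7 and 231.9 CPM in CTRL and at 359.7 and 326.1 CPM in Znhit1_KO, and its log2 change was 0.49 (SE 0.149). The complement protease gene C1s1 had a change of 0.64 (SE 0.236) and the inhibitory receptor gene Cd300a one of 1.61 (SE 0.544). The transcription factor gene Cebpb had a change of 0.77 (SE 0.264). Lower values stood beside these: the scavenger receptor gene Stab2 at -1.47 (SE 0.455), the complement gene Cfb at -1.17 (SE 0.532) and the granulocyte growth factor receptor gene Csf3r at -1.56 (SE 0.586). The authors' deposited table marks Stab2 lower, with an adjusted p of 0.0172.

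**Figure D5:**
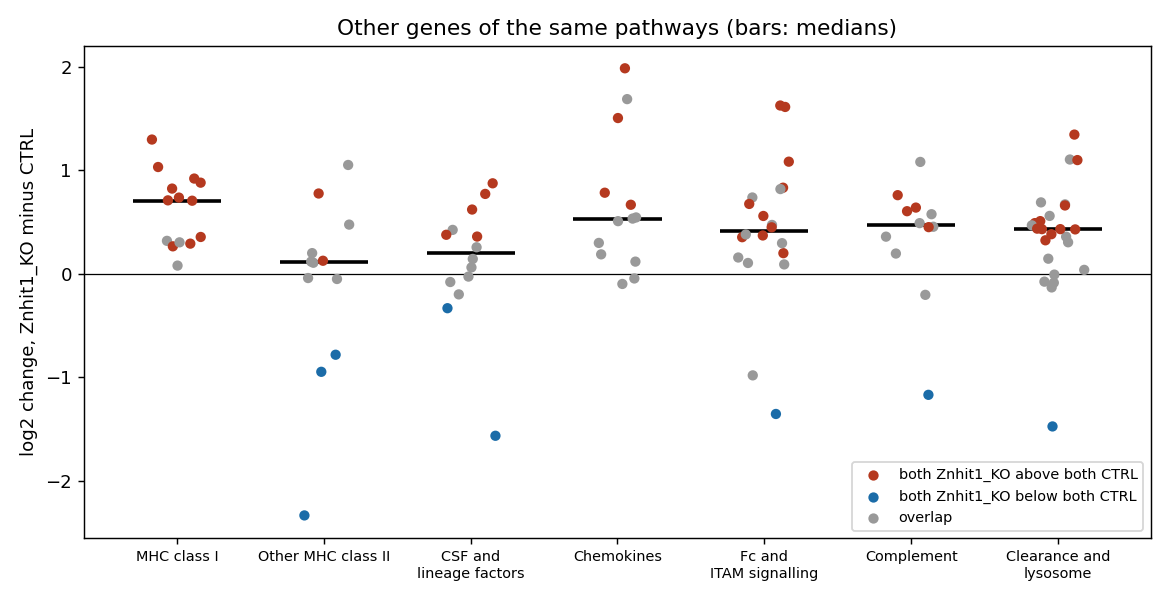
Log2 change between Znhit1_KO and CTRL of each gene of the 7 pathway lists that passed the filter, with horizontal bars at the list medians; red and blue mark genes whose groups do not overlap. All 14 MHC class I genes lie above 0 (9 with Sertoli list scaling, not plotted), whereas the other MHC class II genes spread to both sides around a median of 0.11.

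Other cells of the interstitium were measured in the same libraries. The Leydig cell list had a median log2 change of 0.37 over 14 genes, the fibroblast list 0.38 over 9, the endothelial list 0.22 over 13 and the peritubular myoid list 0.056 over 10. The Leydig list was uneven, with 12 of 14 changes positive (53.1% of all genes). Cyp17a1 had a log2 change of 2.62 (SE 0.303) and Cyp11a1 one of 2.21 (SE 0.523). The authors' deposited table marks both higher (background 0.277%). Scarb1 had a change of 0.31 (SE 0.149) and Nr5a1 one of 0.40 (SE 0.170). Fibroblast markers summed to 794.9 and 802.9 CPM in CTRL and to 876.1 and 1161 CPM in Znhit1_KO, and endothelial markers to 135.2 and 159.3 CPM in CTRL and to 169.5 and 182.0 CPM in Znhit1_KO. In both lists Znhit1_KO replicate 2 was the highest library. Markers of granulocytes were nearly absent: of 10 neutrophil genes, S100a8, S100a9, Ly6g, Elane and Ltf were at 0 in every library and the list summed to 0.380 to 0.684 CPM. Of 7 mast cell genes, Mcpt4, Cma1, Ms4a2 and Fcer1a were at 0 in every library, and Hdc, which made up nearly all of the list's sum, ranged from 15.96 to 46.7 CPM. Natural killer cell genes summed to between 1.04 and 1.64 CPM. Monocyte genes summed to 377.6 and 348.8 CPM in CTRL and to 325.0 and 328.6 CPM in Znhit1_KO, of which most was Fn1, and Treml4 was at 0. Dendritic cell genes summed to between 32.2 and 41.1 CPM, most of it Zbtb46, and Cd209a was at 0. The part of these cells in the levels of the 32 genes was not tested.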

How the data were processed

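The data are 4 poly(A) RNA libraries of mouse testis, 2 Znhit1_KO and 2 CTRL, described in the labels' protocols as independent biological replicates. Per the submitters' processing notes, cutadapt 2.5, HISAT2 2.2.1, StringTie 2.2.1, DESeq2 1.38.3 and the mm10 build were used; the sources used here do not give their order, settings or annotation. The deposited whole-number values were taken as the authors' estimated counts. They sum to well above the minimum number of reads stated in the labels' protocols, so how many reads a count stands for is not known, and low counts and SEs should be read with that limit. The authors' TPM values, scaled to transcript length, were used only to compare levels between genes and as an alternative. The authors' deposited table also gives mean normalised signal, log2 fold changes with standard errors, a Wald score, and p-values with adjusted p-values. The sources used here do not give strandedness, so overlapping genes could not be told apart.

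Estimated counts were tested on the whole table with edgeR 4.0.16 and its quasi-likelihood test under R 4.3.3 (TMM, filterByExpr, genotype as the only term, Benjamini-Hochberg at 0.05); SE came from the F statistic, and mean log2 CPM used a prior count of 2. The test was also run on simulated data, with the outcome not given here. In the edgeR fit Znhit1 itself, at a log2 change of -3.22, was not called, so 0 calls do not show that no gene differed. Alternatives were DESeq2 1.42.0, limma 3.58.1 (voom), other scalings, no filter, TPM with a pseudocount of 0.1, a replicate block and each library left out. Replicates had equal counts for 2.89% (CTRL) and 3.00% (Znhit1_KO) of detected genes and were kept as separate samples. Positions came from GENCODE M21 (mm10). Promoters came from RefSeq (GRCm38.p6), with a window of 250 bases before the start. All 32 genes could be named; of each other list, the 2 with the lowest p and the 2 with the highest mean TPM. The genes and lists were chosen with earlier results of these data known.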

Additional observations from a re-analysis of the deposited data

How the results depend on the processing

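Results kept their direction under RLE size factors, total count scaling, no filter on low counts, DESeq2, limma-voom and TPM: all 32 log2 changes kept their sign. The number of genes called over the whole table was 0 with edgeR, 1041 with DESeq2 and between 0 and 754 with 1 library left out, 754 being without CTRL replicate 1; of the 32 genes DESeq2 called 1 (Fcgr3), and 0 were called with any library left out. The median log2 change of the 32 genes was 0.56; it lay between 0.11 and 0.87 with 1 library left out. With Sertoli list scaling it was 0.23, where the median of all genes moved from 0.031 to -0.33, so that the distance between the medians was 0.53 and then 0.56. Genes with both Znhit1_KO libraries above both CTRL libraries numbered 4 with Sertoli list scaling and 14 to 26 with 1 library left out, against 12, and those below numbered 4 with Sertoli list scaling and 3 to 4 with 1 library left out, against 3. With fewer libraries, groups part more easily. The shares of all genes were not computed for Sertoli list scaling or with 1 library left out. These counts therefore have no background to be set against and are no result about the set.

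Signs turned with Sertoli list scaling for Fcer1g (-0.080), Ccl2 (-0.31), Mrc1 (-0.28) and Spi1 (-0.022). With 1 library left out the log2 change ranged from -0.26 to 1.45 for Lyve1, -0.62 to 1.18 for Ccl2, -0.27 to 1.00 for Ccr2, -0.27 to 0.78 for Lyz2, -0.26 to 1.60 for Trem2, -0.057 to 1.34 for Csf1r, -0.0085 to 0.13 for Mrc1, -0.082 to 0.57 for Spi1, -0.25 to 0.75 for C1qb, -1.53 to 1.70 for Pf4, -0.12 to 1.00 for Cd163 and -0.11 to 0.90 for Folr2. Of these 14 turns of sign, 11 came without Znhit1_KO replicate 2. The cause was not tested.

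The labels number the replicates but do not say that a number marks a shared litter or day. Differences between replicates correlated across genes between the genotypes at 0.42. With a replicate block edgeR called 2737 of all 24116 genes tested. Of the 32 genes it called 6: Fcgr3 lower, and H2-Aa, Cd74, Csf1r, Mertk and C1qa higher. The split of all called genes into higher and lower was not computed for this fit. With 2 pairs the numbers cannot be shown to pair the samples, and the block leaves 1 residual degree of freedom per gene. Depth limits the scarcest genes, such as Ccl2.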

Other observations

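A T cell gene outside the set was lower in both Znhit1_KO libraries. Cd3e, a chain of the T cell receptor complex, stood at 4.94 and 4.09 CPM in CTRL replicates 1 and 2 and at 0.633 and 0.835 CPM in Znhit1_KO replicates 1 and 2, with a log2 change of -2.62 (SE 0.340). The authors' deposited table marks Cd3e lower, with an adjusted p of 1.11e-09. Its partner chains were close to absent: Cd3d did not pass the filter, at 0 to 0.0633 CPM, and Cd3g stood at 0.0696 to 0.295 CPM. Trac, the constant part of the T cell receptor alpha chain, had a log2 change of 0.49 (SE 0.689). Ighm, the heavy chain of IgM in B cells, had a log2 change of 0.75 (SE 0.333). The edgeR test called 0 of these over all genes. Cd3d, Cd3g and Trac were named after their values were seen.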
